A study of Mus musculus with 5 samples.

Results

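Of 5 arrays of RNA labelled as murine lung, the 2 whose titles carry the number 6 were set against the 3 whose titles carry 18 or 48. The titles alone set which arrays fell in each set. The comparison itself and the gene lists were chosen with earlier results of these data known, so the shares below are description and not independent evidence. All mice were of the A/J strain, an inbred strain used in models of allergic airways. One array of each set of numbers came from mice given saline into the trachea (saline 6 and saline 48), and the others from mice given IL-13 (interleukin-13, a cytokine of T helper 2 cells) by the same route (IL-13 6, IL-13 18 and IL-13 48). The labels give the numbers no unit and give neither the hour of collection nor the age of the animals or the number behind an array. Each combination of treatment and number holds 1 array, so any test here measures the spread between arrays, which may be technical. Values are deposited intensities on a linear scale for 12422 probe sets, groups of short oligonucleotides for 1 transcript each. They are given for saline 6 and IL-13 6 first and then for saline 48, IL-13 18 and IL-13 48 in that order. A difference is the log2 value on number 6 arrays minus that on later arrays, fitted over the 5 arrays with treatment as a covariate, with its standard error (SE).

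No probe set passed an adjusted p of 0.05 in either direction (0% of 12422 called higher and 0% called lower by limma with Benjamini-Hochberg adjustment, lowest adjusted p 0.322). At an unadjusted p under 0.05, 495 probe sets were higher and 672 lower on number 6 arrays. With 2 arrays against 3, an exact permutation test of a single value has 10 splits and cannot go below 0.1. Results are therefore described by their values and by whether the 2 sets of arrays overlapped. Both number 6 arrays lay above all 3 later arrays for 8.69% of probe sets and below them for 12.1%. With 1 probe set per gene, the one with the highest mean, these shares were 9.32% and 13.6% of 8251 genes, and the median difference over those genes was -0.0063.

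Genes of the circadian clock differed together. The clock is a feedback loop that runs in nearly every cell of the body, the lung included. CLOCK or NPAS2 pairs with BMAL1, the product of Arntl, and switches on genes through a DNA element called the E-box, among them the Per and Cry genes. The PER and CRY proteins then shut off that pair, while the nuclear receptors NR1D1 and NR1D2 repress Arntl and the ROR receptors activate it through an element called the RORE. Output factors such as DBP and TEF act on a further element, the D-box, so that transcripts of the loop peak at set hours of the day, with Arntl about opposite to the Per genes and Dbp.

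Of 25 clock genes measured, 15 were higher on both number 6 arrays than on every later array (60%, against 9.32% of all genes), and 2 were lower (8%, against 13.6%). The other 8 overlapped or, for Avp and Npas2, lay below the intensity floor of 55.3 on all 5 arrays. The share higher came mostly from the output genes (10 of 12). Of the 13 core genes 5 were higher (38.5%) and 2 lower (15.4%), with a median difference of 0.03 on the log2 scale. At least 2-fold in both treatments were Per2, Dbp, Tef and Tspan4, which were higher, and Arntl, which was lower. Among the 25, 12 had an unadjusted p under 0.05 and none passed after adjustment over all probe sets. In bulk RNA, fewer cells of a type and less RNA per cell cannot be told apart, and this holds for every gene named here.

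**Figure D1:**
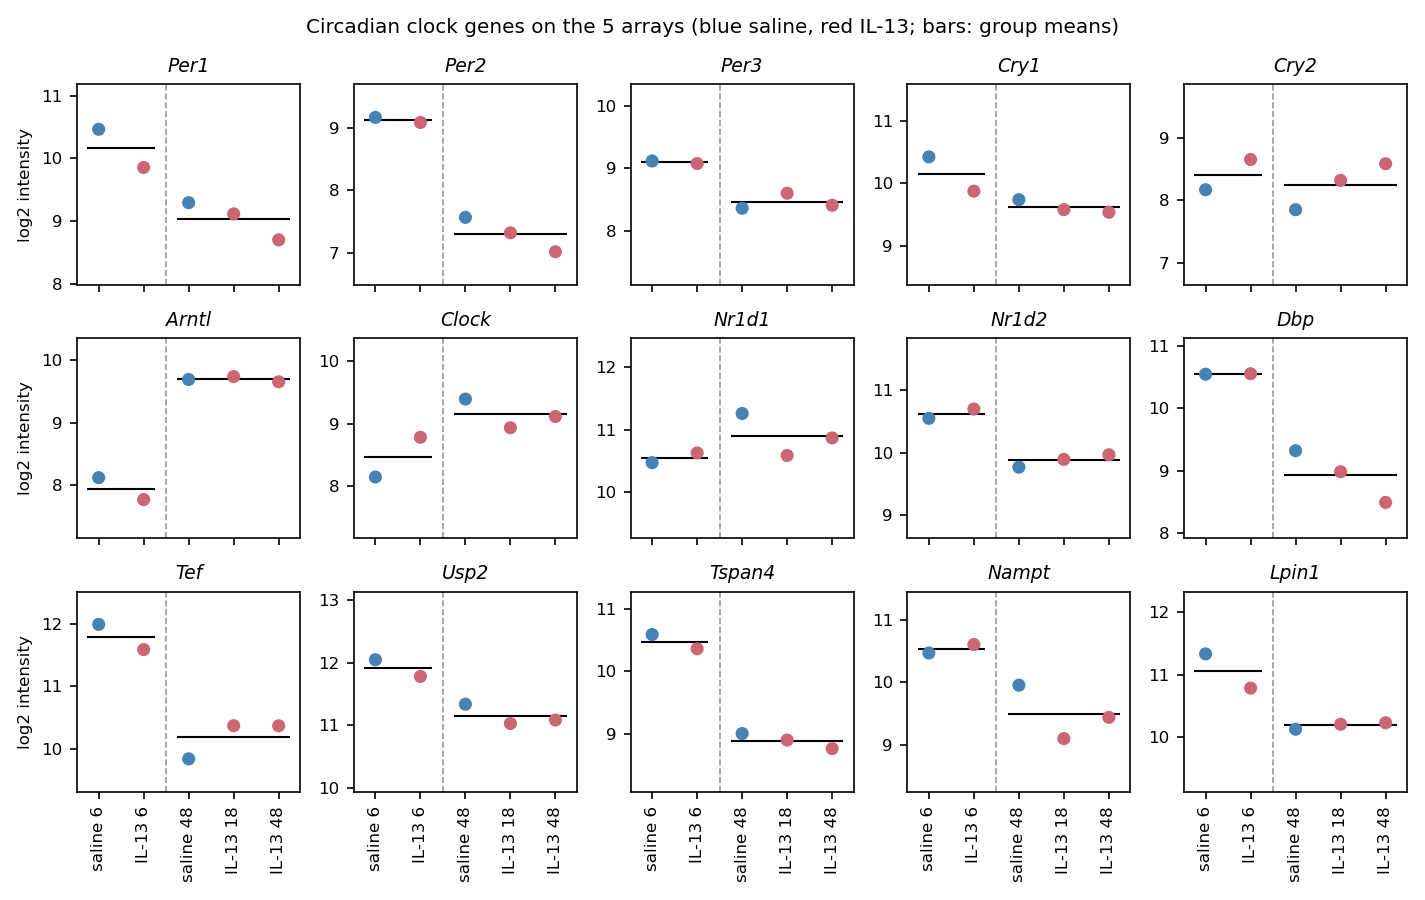
Log2 intensity of 15 clock genes (panels) on the 5 arrays (horizontal axis), with saline in blue, IL-13 in red, a dashed line between number 6 and later arrays and a bar at the mean of each set. Per2, Dbp, Tef and Tspan4 sat higher on both number 6 arrays and Arntl lower, while Cry2 and Nr1d1 overlapped between the sets.

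Among the inhibitors of the loop, Per2 read 573.4 and 542.2 on the number 6 arrays against 189.4, 159.6 and 129.4 on the later ones. The lowest number 6 value was thus well above the highest later value, whichever treatment was given. Saline 6 was 3.03-fold above saline 48 and IL-13 6 was 3.77-fold above the mean of the later IL-13 arrays, a fitted difference of 1.78 (SE 0.16, adjusted p = 0.337). Per1, the family member that also responds to glucocorticoids, read 1414 and 926.1 against 627, 553.7 and 415.3. All 3 later arrays were lower, and the difference was 1.05 (SE 0.19, adjusted p = 0.421). Per3 read 554.6 and 538.8 against 328.6, 387.9 and 339.5, a difference of 0.65 (SE 0.10). Its sets did not overlap either. For Cry1, a partner of the PER proteins, values were 1374 and 940 against 855, 765.6 and 743.6, from a probe set that related transcripts may share. The sets were apart, by 0.47 (SE 0.12), and the gene's other 2 probe sets lay below the floor throughout. Cry2 overlapped, with 287.5 and 402.1 against 230.6, 319.1 and 383.7.

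The activators of the loop lay the other way. Arntl read 279.1 and 218.8 on the number 6 arrays against 828.2, 855.1 and 807.2 on the later ones. The 3 later arrays were close to each other, and both number 6 arrays were far below them. The level was 2.97-fold lower on saline 6 than on saline 48 and 3.80-fold lower on IL-13 6 than on the later IL-13 arrays, a fitted difference of -1.77 (SE 0.12, adjusted p = 0.327). Clock, its partner, read 282.9 and 439.7 against 671.4, 488.8 and 553.3. It was lower without overlap, but IL-13 6 lay close to IL-13 18, and the difference was -0.67 with an SE of 0.32.

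Of the nuclear receptors that repress Arntl, Nr1d2 was higher and Nr1d1 was not. Nr1d2 read 1496 and 1659 against 870.9, 949.6 and 999.1, a difference of 0.77 (SE 0.03, adjusted p = 0.322) that was nearly the same in saline (0.78) and IL-13 (0.77). Nr1d1 read 1425 and 1587 against 2456, 1543 and 1874. IL-13 18 lay between the number 6 arrays, so the sets overlapped. Rora, an activator of Arntl, and Csnk1d and Csnk1e, kinases that mark PER proteins for turnover, also overlapped, with differences of -0.11, -0.02 and 0.03. Another probe set of Csnk1d was lower without overlap, at -0.46.

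The output genes were higher as a group. Of 12 measured, 10 were higher without overlap (83.3%, against 9.32% of all genes) and none lower, and their median difference was 0.74, or 0.83 in saline and 0.56 in IL-13. With any 1 array left out the median ranged from 0.56 to 0.83, the same values again, so the range is no separate check. Without either saline array the fit is the IL-13 difference, and without IL-13 6 it is the saline difference. Dbp, a transcription factor whose level swings widely over the day in many tissues, read 1492 and 1500 against 639.3, 506.3 and 360.4. The number 6 arrays were nearly equal, and the difference was 1.56 (SE 0.27, adjusted p = 0.420), or 2.33-fold in saline and 3.51-fold in IL-13. Tef, its relative, read 4076 and 3082 against 918.4, 1326 and 1324, which gave 1.62 (SE 0.29, adjusted p = 0.425). Here saline differed more than IL-13, by 4.44-fold against 2.33-fold. Tspan4, which encodes a membrane tetraspanin, read 1542 and 1317 against 514.7, 479.1 and 435.7. Its difference of 1.55 had an SE of 0.06 (adjusted p = 0.322) and was near 3-fold in each treatment, 3.0-fold in saline and 2.88-fold in IL-13.

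Several output genes encode enzymes. Usp2, a deubiquitinating enzyme, was higher on both of its probe sets, by 0.72 (SE 0.03) on the one with 4242 and 3525 against 2591, 2093 and 2174. The other probe set, at 3048 and 2971 against 1598, 846 and 898.6, gave 1.41 (SE 0.26). Neither overlapped. Nampt, the rate-limiting enzyme of NAD salvage, read 1418 and 1557 against 992.6, 549 and 694.9, with the IL-13 arrays further apart than the saline arrays. Lpin1, a phosphatidate phosphatase, read 2580 and 1767 against 1119, 1183 and 1202. Pdk4, a kinase that shuts off pyruvate dehydrogenase, read 11590 and 5805 against 5627, 3258 and 4850, so saline 6 stood well above IL-13 6 and only a small gap parted IL-13 6 from saline 48. Smaller differences without overlap were seen for Tsc22d3, a glucocorticoid-induced regulator (0.70), Wee1, a kinase that delays mitosis (0.45), and the repressor Bhlhe40 (0.22). Tsc22d3 was dim, and over the alternatives that kept all arrays its difference was as low as 0. Nfil3, which competes with DBP and TEF for the D-box, overlapped, at 176.8 and 123.2 against 168.5, 155.1 and 198.1.

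Within the later arrays the clock genes had no common order by number: IL-13 18 lay above IL-13 48 for 11 of the 25.

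Promoters of clock genes are shown because members of the loop differed together. RefSeq promoters (GRCm38.p6, of the C57BL/6J strain, not A/J) were available for 21 of the 25 genes, as 250 bases before to 50 after each start. The E-box letters CACGTG stood in this window for 5 of the 21 (Per1, Cry1, Tef, Tspan4 and Avp) and in 8.09% of all 27025 genes with an entry. The D-box letters TTATGTAA or TTACGTAA, on either strand, stood in 1 of the 21, Per3, and in 1.23% of all genes. The RORE core TAGGTCA, on either strand, stood in 2 of the 21, Arntl and Nfil3, and in 2.97% of all genes. Counted by start, the E-box stood in 6 of 32 starts of clock genes and in 7.15% of all starts. The output list was drawn up as D-box and E-box targets, so a share above that of all genes was in part set beforehand. A match is a description of letters and not a site shown to be bound. The 250 bases before the start follow for Per1, Cry1, Tef (both of its starts with a match), Tspan4 and Per3, 5′ to 3′ on the gene's strand, with the E-box or D-box in capitals.
Per1 chr11:69098699-69098948 (plus strand): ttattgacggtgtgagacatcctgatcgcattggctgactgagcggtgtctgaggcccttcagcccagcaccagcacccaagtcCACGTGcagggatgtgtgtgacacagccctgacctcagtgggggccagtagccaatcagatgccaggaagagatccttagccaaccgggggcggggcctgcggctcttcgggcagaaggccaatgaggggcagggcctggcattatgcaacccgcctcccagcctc
Cry1 chr10:85185055-85185304 (minus strand): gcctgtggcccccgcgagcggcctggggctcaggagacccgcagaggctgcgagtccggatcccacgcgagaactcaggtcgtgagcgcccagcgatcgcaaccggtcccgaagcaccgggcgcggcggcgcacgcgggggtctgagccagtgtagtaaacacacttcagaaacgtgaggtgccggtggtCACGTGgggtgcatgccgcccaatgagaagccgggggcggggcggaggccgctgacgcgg
Tef chr15:81802423-81802672 (plus strand): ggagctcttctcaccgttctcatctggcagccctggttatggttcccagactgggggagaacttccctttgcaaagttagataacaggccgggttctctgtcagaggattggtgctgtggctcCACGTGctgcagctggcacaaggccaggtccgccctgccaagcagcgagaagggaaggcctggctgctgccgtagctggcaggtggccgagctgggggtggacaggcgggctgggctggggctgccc
Tef chr15:81811164-81811413 (plus strand): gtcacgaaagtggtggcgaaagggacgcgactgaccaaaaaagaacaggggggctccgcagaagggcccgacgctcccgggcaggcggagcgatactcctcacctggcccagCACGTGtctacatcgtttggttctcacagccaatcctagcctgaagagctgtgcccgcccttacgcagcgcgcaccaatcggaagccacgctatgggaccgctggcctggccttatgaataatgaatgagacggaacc
Tspan4 chr7:141476130-141476379 (plus strand): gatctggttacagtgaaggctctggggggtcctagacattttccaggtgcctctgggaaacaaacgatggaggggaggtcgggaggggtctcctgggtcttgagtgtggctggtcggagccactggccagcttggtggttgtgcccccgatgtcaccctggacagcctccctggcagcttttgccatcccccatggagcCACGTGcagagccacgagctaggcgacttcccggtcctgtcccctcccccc
Per3 chr4:151044666-151044915 (minus strand): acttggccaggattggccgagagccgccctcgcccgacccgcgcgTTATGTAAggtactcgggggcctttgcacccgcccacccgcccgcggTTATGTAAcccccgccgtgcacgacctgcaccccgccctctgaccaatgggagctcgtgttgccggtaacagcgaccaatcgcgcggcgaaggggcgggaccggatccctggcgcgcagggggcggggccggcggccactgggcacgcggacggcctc
In Per1, Tef and Tspan4, all higher on number 6 arrays, the first base of the E-box lay 166, 127 or 138, and 51 bases before the start, and in Cry1 60 bases. The D-box letters of Per3 occurred at 158 and 205 bases before the start.

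Over all probe sets, few differed at least 2-fold in both treatments without overlap: 22 were higher on number 6 arrays (0.177% of all) and 9 lower (0.0725%), counts that include the 5 clock genes above. Among the other higher ones were genes of lymphoid tissue. Ccl5, a chemokine of T cells, read 2859 and 730.6 against 320, 36.6 and 538.5. Glycam1, a mucin of lymph node venules that binds L-selectin, read 2959 and 746.9 against 93.66, 35.76 and 677.3. For both genes saline 6 stood far above the rest, IL-13 18 was below the floor, and IL-13 6 lay less than 2-fold above IL-13 48. Ccr6, a chemokine receptor of B cells and some T cells, was more even, with 714.5 and 402.9 against 142.8, 144.4 and 132.6, a difference of 1.88 (SE 0.25, adjusted p = 0.361). Cd72, a surface protein of B cells, read 690.4 and 268.2 against 56.13, 34.29 and 232.9. Here too IL-13 18 was below the floor and IL-13 6 lay less than 2-fold above IL-13 48.

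**Figure D2:**
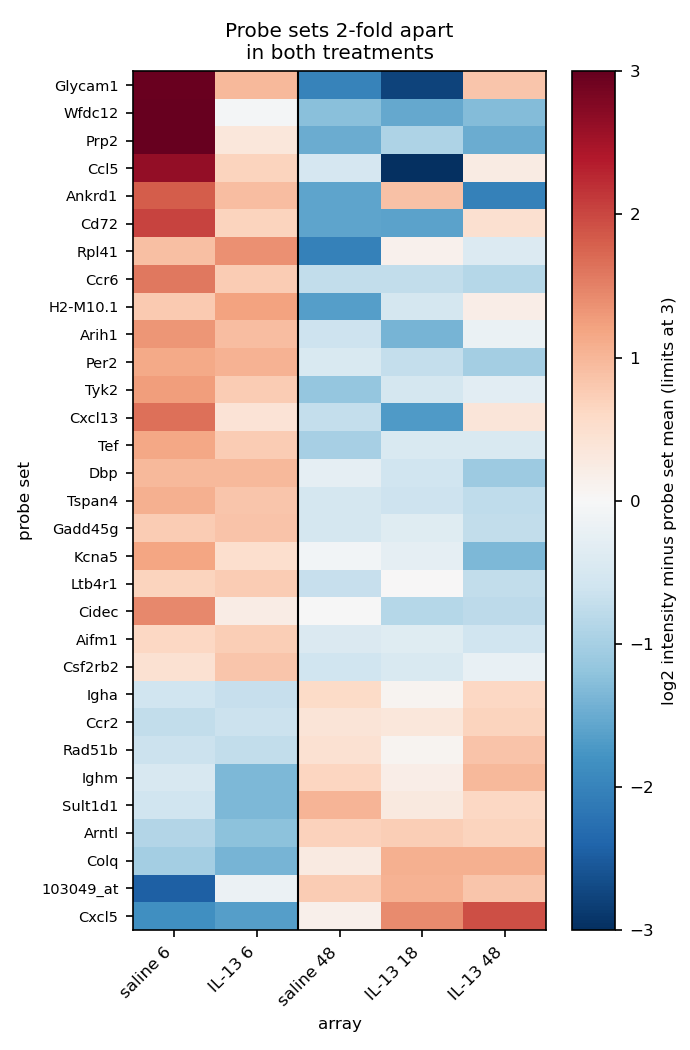
Heat map of the 31 probe sets (rows, named by gene, or by probe set where no gene symbol is assigned) that were at least 2-fold apart in both treatments without overlap, on the 5 arrays (columns). Colour gives log2 intensity minus the mean of the probe set and is limited at 3. Clock genes such as Per2, Tspan4 and Arntl were even within each set, whereas Wfdc12, Prp2 and Glycam1 were highest on saline 6.

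Other higher genes had varied roles. Gadd45g, which is induced by DNA damage and by cytokines, read 1224 and 1295 against 500.4, 561.8 and 432.9. Its sets were far apart and each was tight, with a difference of 1.35 (SE 0.16, adjusted p = 0.360). Ankrd1, a stretch-responsive muscle gene, read 3274 and 1754 against 309.8, 1696 and 228, so IL-13 18 came close to IL-13 6. Arih1, a ubiquitin ligase, read 3385 and 2568 against 878.4, 516.6 and 1185. Its other probe set was dimmer and went the other way, at 455.3 and 498.3 against 562, 509.7 and 635.6. Rpl41, a ribosomal protein gene measured by a probe set of possibly shared probes, read 13010 and 17970 against 1708, 7635 and 5251. Kcna5, a potassium channel gene, and H2-M10.1, a nonclassical MHC gene, were also in the set, with differences of 1.29 and 1.82. The brightest probe set of H2-M10.1 overlapped, at -0.06.

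In 2 of the higher genes the difference rested mostly on saline 6. Wfdc12, which encodes a secreted protease inhibitor, read 13760 and 752.1 against 328.7, 266.6 and 314.4, and Prp2, a proline-rich protein gene of salivary gland, read 6295 and 670.4 against 188.3, 281.4 and 188.7. Salivary gland genes were also high on that array, as described further on. Another probe set of Prp2 overlapped between the sets. Outside the rule for named genes and chosen after their values were seen, Aifm1, a mitochondrial flavoprotein, read 3268 and 3545 against 1568, 1641 and 1403, and Csf2rb2, the mouse receptor chain for IL-3, read 464.4 and 602.3 against 224.1, 250.1 and 292.3. Both were even in the 2 treatments, with differences of 1.15 (SE 0.11) and 1.11 (SE 0.10).

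The 9 lower probe sets belonged to 8 named genes and 1 without a symbol. Cxcl5, a chemokine that draws in neutrophils, had the largest difference, with 30.55 and 62.68 against 218.5, 524.8 and 749.9. Saline 6 was below the floor, so the level was at least 3.95-fold lower there than on saline 48, and on IL-13 6 it was lower than on the later IL-13 arrays by a log2 difference of -3.32. The fitted difference was -2.75 (SE 0.47, adjusted p = 0.414). Among other genes of the acute phase and inflammation list, Cxcl1, a related chemokine, read 68.17 and 80.3 against 109.3, 229 and 280.9, and Il1rn, the interleukin-1 receptor antagonist, 149.7 and 356.9 against 452, 415.8 and 475.7. These were the only 3 of 32 members without overlap in the lower direction (9.38%, against 13.6% of all genes), and none was higher without overlap.

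Ccr2, the receptor that brings monocytes into tissue, read 226 and 244.8 against 496.6, 476.7 and 602.1. The difference of -1.13 (SE 0.14, adjusted p = 0.361) was the same in saline (-1.14) and in IL-13 (-1.13). Sult1d1, a sulfotransferase of catecholamines, read 342.5 and 204.8 against 1050, 635.1 and 803.7, and Colq, the collagen tail of acetylcholinesterase, read 95.43 and 72.74 against 231.1, 406.3 and 405.8. Both were lower in each treatment, by 3.07-fold and 3.49-fold for Sult1d1 and by 2.42-fold and 5.58-fold for Colq, in saline and IL-13. Rad51b, a DNA repair gene, had a difference of -1.16 (SE 0.32). Igha, the heavy chain gene of IgA, read 2038 and 1916 against 4559, 3281 and 4709, a difference of -1.09 (SE 0.22). For Ighm, the heavy chain gene of IgM, probe sets disagreed. The one that met the rule read 429.2 and 235 against 938.8, 687.4 and 1165, while the brightest read 5773 and 2645 against 1441, 1870 and 2186.

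**Figure D3:**
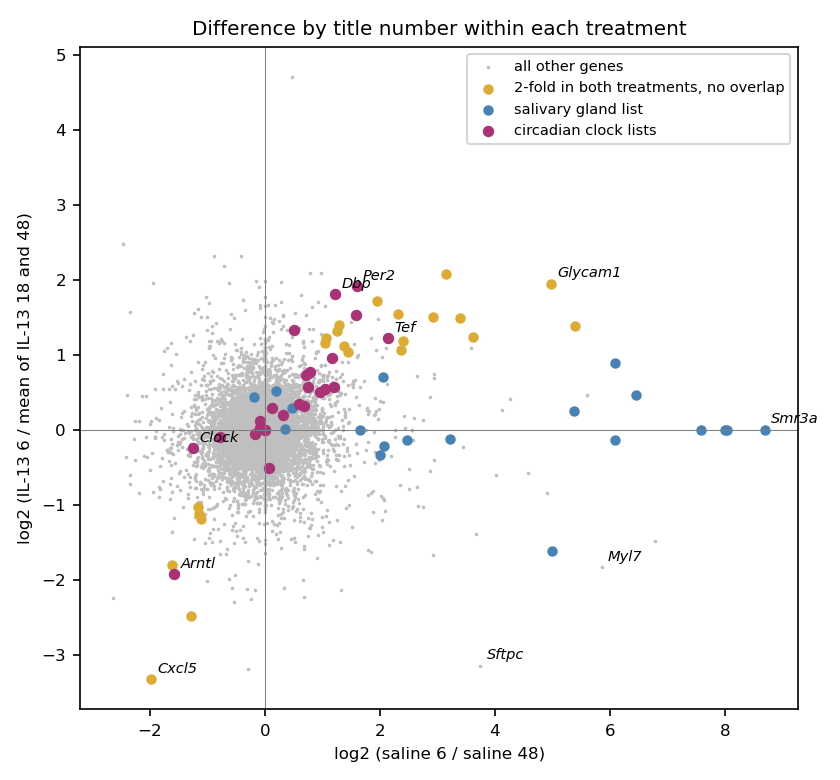
Each point is 1 gene, by the log2 ratio of saline 6 to saline 48 (horizontal) and of IL-13 6 to the mean of IL-13 18 and IL-13 48 (vertical), with clock genes, salivary gland genes and genes 2-fold apart in both treatments in colour. Per2, Dbp and Tef lay high on both axes and Arntl and Cxcl5 low on both, whereas Smr3a lay far out on the saline axis near 0 on the other, and Myl7 and Sftpc lay high on the saline axis and below 0 on the other.

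Gene lists placed the clock beside other groups. Of 33 genes of oxidative phosphorylation, the respiratory chain of mitochondria, 21 were higher without overlap (63.6%, against 9.32% of all genes) and none lower, but by little, with a median of 0.29 (0.47 in saline and 0.17 in IL-13). Ndufa2, of complex I, read 2453 and 4084 against 1759, 1938 and 2205. Sdhd, of complex II, read 8957 and 6475 against 5512, 4477 and 5060, and Uqcrc2, of complex III, 9134 and 6135 against 5191, 4749 and 5158. These sets did not overlap, and in Sdhd and Uqcrc2 saline 6 was the highest. Bright probe sets as a whole were higher on number 6 arrays: the 99th percentile of intensity was 13547 and 13261 there against 11404, 11623 and 11627. Among the brightest 5% of genes 26.6% were higher without overlap, and 22 of the 33 genes belong to that class. With quantile normalization, which removes this difference in the spread of intensities, 16 of the 33 still lay above without overlap. The share of all genes was then 10.4%, and the median of the list was 0.18. The part of brightness in the remainder was not tested.

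**Figure D4:**
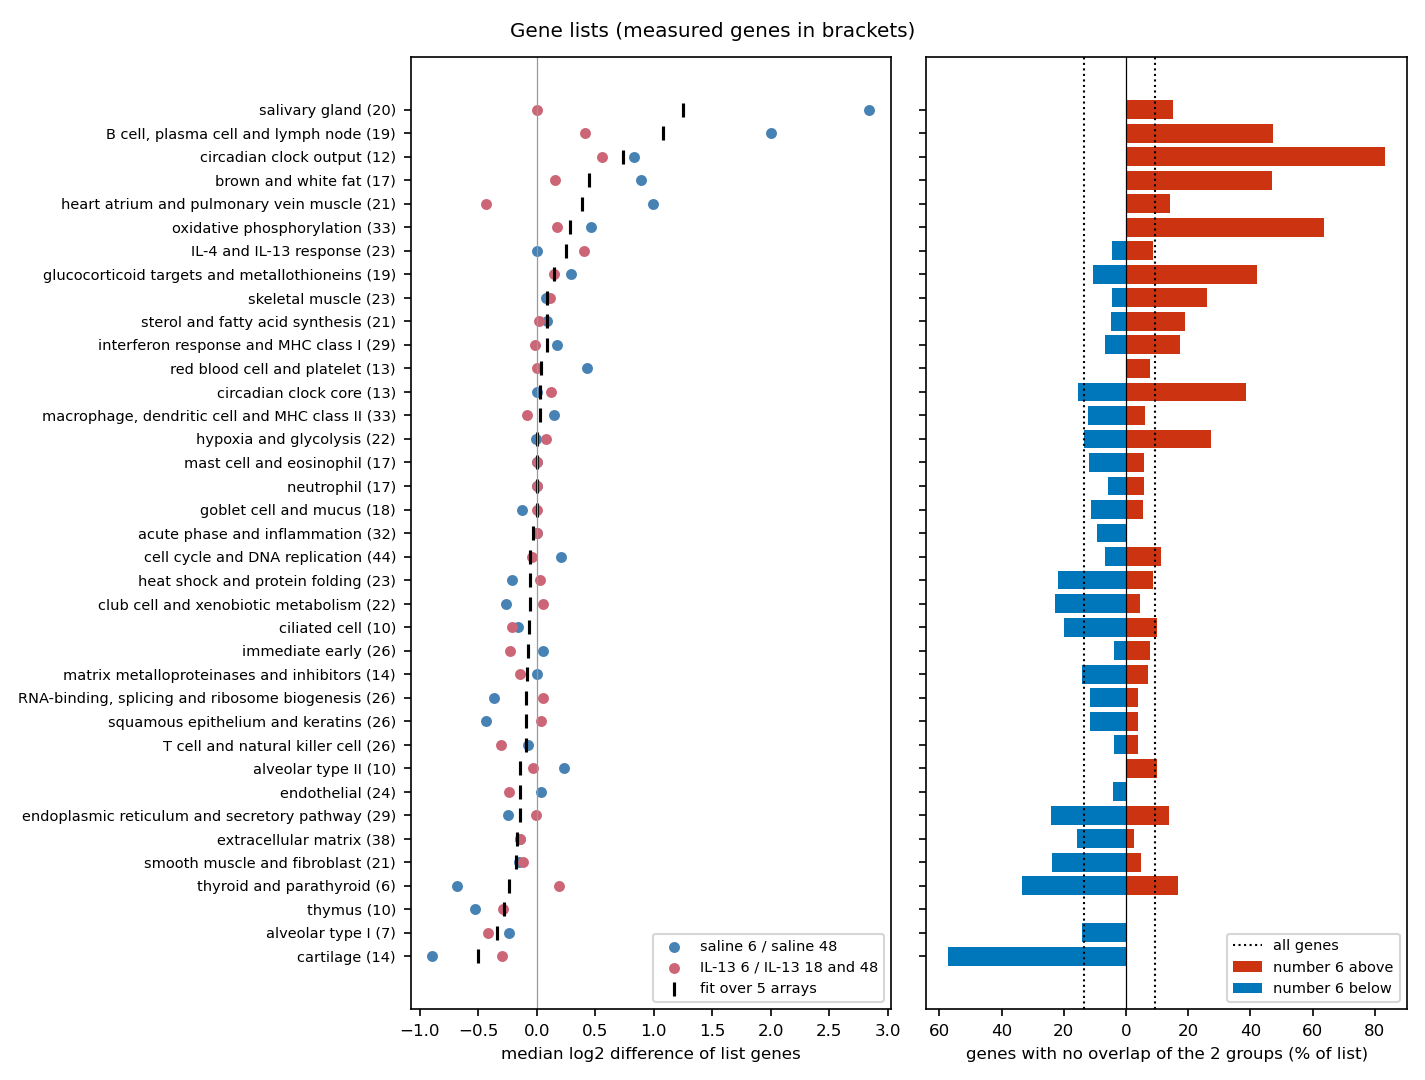
For each gene list (rows, with the number of measured genes in brackets), the left panel gives the median log2 difference in saline (blue), in IL-13 (red) and in the fit (bar), and the right panel the share of its genes that lay above (red) or below (blue) all later arrays, with dotted lines at the shares of all genes. Clock output and oxidative phosphorylation had the highest shares above and cartilage the highest share below.

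Energy metabolism outside the mitochondria was mixed. In the hypoxia and glycolysis list of 22, 6 were higher and 3 lower without overlap (27.3% and 13.6%, against 9.32% and 13.6% of all genes), with a median of 0.01. The share higher is close to the 26.6% among the brightest 5% of genes, to which 8 of the 22 belong. The part of brightness was not tested. Pgk1, a glycolytic kinase, read 9982 and 9600 against 5218, 5472 and 5917, and Hk2, a hexokinase, 6177 and 5239 against 3519, 3283 and 3184. Both had narrow sets far apart, with differences of 0.83 (SE 0.07) and 0.75 (SE 0.04). Vegfa, the vascular growth factor, went the other way, at 676.7 and 664.5 against 946.5, 1158 and 1422. Of 21 genes of sterol and fatty acid synthesis 4 were higher and 1 lower without overlap (19.0% and 4.76%, against 9.32% and 13.6% of all genes). Scd1, a stearoyl-CoA desaturase, read 25380 and 26190 against 16360, 17720 and 17000, a difference of 0.61 (SE 0.03, adjusted p = 0.322). Scd2, its relative, read 5165 and 4680 against 10290, 9306 and 10280, a difference of -1.03 (SE 0.06, adjusted p = 0.322). The desaturases thus lay in opposite directions on these probe sets. Scd1 is bright, and bright probe sets as a whole were higher on number 6 arrays. Over the alternatives that kept all arrays its difference was as low as 0.27. Another probe set of Scd2, with probes that may be shared, was slightly higher, at 0.16, and a dim one of Scd1 gave -0.32 with overlap.

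Glucocorticoid targets and metallothioneins, which answer to a hormone that itself follows a daily rhythm, had 8 of 19 members higher and 2 lower without overlap (42.1% and 10.5%, against 9.32% and 13.6% of all genes). Per1 and Tsc22d3 are members of both this list and the clock lists. Zbtb16, a transcription factor that glucocorticoids induce, read 3878 and 3893 against 2496, 1038 and 1203, a difference of 1.30 (SE 0.37). Fkbp5, a co-chaperone of the glucocorticoid receptor, read 3539 and 2925 against 2836, 1383 and 903.4. In both, the later IL-13 arrays were far lower, and saline 48 lay between. For Fkbp5 saline 48 was close to IL-13 6, and the difference was 0.32 in saline and 1.39 in IL-13. Sult1a1, a sulfotransferase of phenols, read 442.3 and 426.1 against 251.1, 142.3 and 131.1. Cdkn1a, a cell cycle inhibitor, was lower, at 784.2 and 846.5 against 1711, 1257 and 1497, a difference of -0.88 (SE 0.17).

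In the endoplasmic reticulum list 7 of 29 genes were lower and 4 higher without overlap (24.1% and 13.8%, against 13.6% and 9.32% of all genes), with a median of -0.15. Hsp90b1, a chaperone of that compartment, read 3695 and 5802 against 7705, 7321 and 8146, and Creld2, a stress-induced protein of it, 466.8 and 709.5 against 884.5, 1050 and 1091. Herpud1, of the degradation pathway, was higher, at 2789 and 2234 against 1726, 1712 and 1294. Among 38 extracellular matrix genes 6 were lower and 1 higher without overlap (15.8% and 2.63%), a share lower that is close to the 13.6% of all genes. Lox, which cross-links collagen and elastin, read 199.7 and 298.6 against 619.3, 507.4 and 429.2, and Tgfb3, a growth factor of matrix-forming cells, 1121 and 1101 against 1454, 1640 and 2331. Mfap4, a microfibril protein, read 389.7 and 657.6 against 879.9, 1651 and 913.5.

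Markers of some tissues other than lung were bright on every array. Tg, the thyroid hormone precursor, read 23540 and 25520 against 13170, 18350 and 15060. Pth, the hormone of the parathyroid, lay between 8659 and 13790, with a difference of -0.27. Of 6 measured genes of the thyroid and parathyroid list, 1 had a fitted difference above 0 and 5 below, with a median of -0.24. Without overlap 1 was higher and 2 lower (16.7% and 33.3%, against 9.32% and 13.6% of all genes). Scgb1a1, the marker of airway club cells, lay between 22020 and 31020. Sftpc, the surfactant protein of alveolar type II cells, read 2615 and 257.2 against 194.3, 17180 and 300.5. This gene was thus low on IL-13 6, saline 48 and IL-13 48, against the label of lung. Sftpb and Slc34a2, of the same cells, were also far higher on IL-13 18 than elsewhere. Not every alveolar gene was low: Ager, of alveolar type I cells, read 1872 and 2081 against 2128, 4928 and 2019. Muc5ac, a goblet cell mucin, was below the floor on all 5 arrays. Clca1 and Agr2, markers of the same cells, were above it on all 5. Clca1 read 3118 and 21500 against 284.7, 29080 and 22010, and Agr2 1944 and 5156 against 2646, 9370 and 4339. Correlations between arrays over all probe sets (log2, floored) ran from 0.954 to 0.976, with the lowest 4 all those of saline 6. The title of IL-13 6 ends differently from the other 4, and the labels do not say what that ending means.

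**Figure D5:**
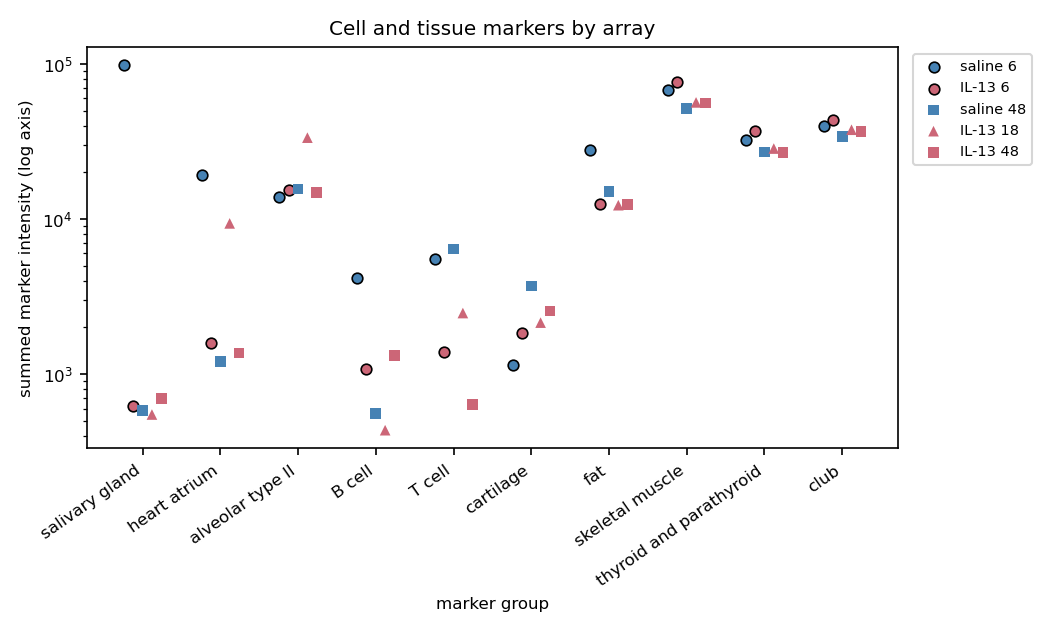
Summed intensity of marker genes (log axis) for 10 tissues or cell types on each array, with number 6 arrays outlined. The sums of salivary gland and heart atrium markers were highest on saline 6. The sum of cartilage markers, mostly Acan, was lower on both number 6 arrays than on the 3 later ones.

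The B cell and fat lists were higher, with larger medians in saline than in IL-13, a difference that was not tested. Other lymphoid lists were not higher: the medians in saline and IL-13 were -0.08 and -0.30 for T cells and -0.52 and -0.29 for thymus. The list of B cell, plasma cell and lymph node genes had 9 of 19 members higher without overlap (47.4%, against 9.32% of all genes) and none lower, with a median of 1.08, but 2.0 in saline and 0.42 in IL-13. Igha, which was lower without overlap (-1.09), was not counted in this list. For Ighm the probe sets disagreed, as described above. Cd79a, of the B cell receptor, read 2126 and 527.7 against 277.5, 127.1 and 782.9, and Cd22, a B cell lectin, 718.4 and 249.4 against 59.58, 37.39 and 250.4. In both, IL-13 48 reached the level of IL-13 6. A count without overlap can only stay or grow when an array is left out. Without IL-13 48 it was 15, where the share of all genes was 12.6%. Without IL-13 6 it was 16, where the share of all genes was 22.8%. Of 17 genes of brown and white fat 8 were higher without overlap (47.1%, against 9.32% of all genes) and none lower. Their median was 0.44 (0.89 in saline and 0.15 in IL-13). Without IL-13 6 the count was 15, where the share of all genes was 22.8%. Among the brightest 5% of genes, to which 6 of the 17 belong, 26.6% were higher without overlap. The part of brightness was not tested. The fat markers Ucp1 and Adipoq overlapped. Ucp1 read 16460 and 6896 against 8704, 7219 and 7779, and Adipoq 9744 and 4878 against 5685, 4724 and 4289. Cidec, a lipid droplet protein, read 1599 and 684.7 against 588.1, 326.8 and 340.1, and Car3, a carbonic anhydrase of fat and muscle, 13100 and 10550 against 6504, 5588 and 7612. Pck1, an enzyme of glycerol and glucose synthesis, and Thrsp, a regulator of lipid synthesis, had differences of 0.77 and 0.75. The summed level of the 2 B cell markers, Cd79a and Cd79b, which are members of that list and read 4170 and 1077 against 557, 435 and 1318, and that of the 3 fat markers, also members of their list, at 27803 and 12459 against 14977, 12270 and 12408, was highest on saline 6, and none of these markers was below the floor on all arrays. The part of tissue content in these groups was not tested.

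Cartilage genes had the opposite pattern. Of 14 measured, 8 were lower without overlap (57.1%, against 13.6% of all genes) and none higher, with a median of -0.50 (-0.89 in saline and -0.30 in IL-13). Acan, the main proteoglycan of cartilage, read 948.4 and 1552 against 3278, 1895 and 2141, and Matn4, a matrilin, 287.5 and 499.5 against 553.6, 707.1 and 609.9. Saline 6 was the lowest array for both. Fmod, a collagen-binding proteoglycan, read 248.1 and 251.9 against 480.6, 279.4 and 596.9. With any 1 array left out the median ranged from -0.89 to -0.30, which repeats the saline and IL-13 medians and is no separate check. The summed cartilage markers, which are members of the list, were 1150 and 1834 against 3688, 2147 and 2554. Most of that sum was Acan. The marker Col2a1 overlapped, at 119.1 and 144.5 against 128.4, 101.3 and 86.42, a difference of 0.31. Skeletal muscle genes, bright on all arrays, had 6 of 23 higher and 1 lower without overlap (26.1% and 4.35%, against 9.32% and 13.6% of all genes), a share higher close to the 26.6% among the brightest 5% of genes, to which 15 of the 23 belong. Among the 6 were Acta1 and Myh4 of the contractile apparatus (0.80 and 0.73) and the muscle enolase Eno3 (0.56). With quantile normalization the counts of the list were 2 higher and 2 lower, where the shares of all genes were 10.4% and 12.3%. The median of the list went from 0.09 to -0.05.

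Some differences by number belonged to 1 treatment. The product of number and treatment passed the adjusted threshold for no probe set (0% of 12422, lowest adjusted p 0.224 by limma, with 1 residual degree of freedom), and 1817 had an unadjusted p under 0.05. Salivary gland genes were the clearest case by size: 19 of 20 had a fitted difference above 0, but their median was 2.84 in saline and 0.00 in IL-13. Smr3a, a secreted salivary protein, read 22980 on saline 6 and was below the floor on the other 4 arrays. The summed salivary markers were 97959 on saline 6 and between 549 and 698 on the others. Myl7, the atrial myosin light chain, read 7548 and 224.8 against 129.9, 3323 and 192.3, so it was high on saline 6 and IL-13 18. Gtf2f2, of the general transcription machinery, read 228.1 and 1061 against 1263, 171.2 and 211.2, and Plec, a cytoskeletal linker, 722.4 and 4321 against 3656, 1222 and 1723. In both, number 6 was lower than the later number in saline and higher in IL-13. Sprr2c-ps, a small proline-rich pseudogene whose probes may be shared with its family, read 2959 on IL-13 6 and at most 151.4 on the other arrays. For such genes the value fitted across treatments describes neither.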

How the data were processed

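RNA of 5 samples labelled as murine lung of A/J mice was measured on Affymetrix arrays. The authors deposited 1 table of intensity values on a linear scale for 12488 probe sets. How these were computed and scaled is not given in the sources used here. In the deposited intensity values the 2% trimmed mean lies between 800.39 and 800.47 on every array. The number of arrays limits the precision.

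The 66 control probe sets were left out. Each value was raised to at least the 20th percentile over all arrays (55.3) before log2, after which 1507 probe sets had no spread. limma 3.58.1 in R 4.3.3 (lmFit and eBayes, two-sided, Benjamini-Hochberg adjustment over all 12422 probe sets, threshold 0.05) was fitted to all 5 arrays with title number 6 against 18 and 48 and treatment as terms (2 residual and 0.53 prior degrees of freedom). The fit was tested on simulated data. The 2-fold rule asked for no overlap, at least 2-fold in each treatment and a mean of the higher set above the pooled median (343). Folds against values below the floor are lower bounds.

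The platform annotation gave 1 gene symbol for 10833 probe sets, several for 396 and none for 1193; 10817 symbols were updated through the RefSeq gene table. The brightest probe set stands for a gene. Names were taken by rule: up to 15 genes per direction of the 2-fold rule, every clock gene, up to 5 genes per list by size of the difference, and up to 8 per direction by the difference between treatments. The comparison and its 38 gene lists were chosen with earlier results of these data known, so no list is independent evidence. Alternatives were other scalings, floors, filters, limma settings and fold thresholds, no treatment term, and each array left out in turn. Figures were drawn with matplotlib 3.10.9.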

Additional observations from a re-analysis of the deposited data

How the results depend on the processing

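No probe set was called by number in any alternative except a floor at the 40th percentile, which gave 1 higher and 2 lower (lowest adjusted p 0.037); with the other alternatives the lowest adjusted p was between 0.111 and 0.576. The product of number and treatment gave 222 calls with that floor and 468 with limma's trend and robust settings, against 0 otherwise. Counts of the 2-fold rule, 22 higher and 9 lower, became 14 higher with that floor, 14 and 5 with a filter at the 60th percentile, 82 and 66 at 1.5-fold, and 4 and 2 at 3-fold. Without IL-13 18, 16 were lower, 8 of them among the original 9. The rule needs 1 saline and 1 IL-13 array in each set, so it had no value without any of the other 4 arrays. The causes were not tested.

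Of 8 named probe sets that changed sign, Csnk1d went from -0.022 to 0.018 with a common median of bright probe sets. With 1 array left out, its difference ran from -0.118 to 0.058, that of Csnk1e from -0.090 to 0.122, Nfil3 from -0.51 to 0.070, Myl7 from -1.83 to 5.86, Plec from -2.34 to 1.57, Gtf2f2 from -2.47 to 2.48, Sftpc from -3.14 to 3.75 and the brightest probe set of H2-M10.1 from -0.29 to 0.24. The other 84 of 92 named probe sets did not change sign in any alternative, which was in part set by how they were chosen. Probe sets that met the 2-fold rule could not reverse when an array was left out. Avp and Npas2, with a difference of 0, could not be counted as reversed. No paired analysis was possible because the number that would pair arrays is the comparison itself; treatment was the covariate.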
